A study of Mus musculus with 12 samples.

Results

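The Slc1 family of solute carriers was followed through 12 RNA-seq libraries of retinal cells picked after a crush of the optic nerve, which cuts ganglion cell axons off from the brain. All 7 mouse members of the family, Slc1a1 to Slc1a7, were taken by symbol from the 54232 genes of the series' count table. They were chosen for their levels in these libraries, so their levels and fold changes are given as a description. Where a fit over all genes called a member, the call is counted beside the share of all genes called and carries no evidence of its own. Eyes of adult male WT mice had received an adeno-associated virus (AAV2, injected into the vitreous) with the gene of Olig1, known as a bHLH factor of developing oligodendrocytes, or with that of green fluorescent protein (GFP) as control. The groups were AAV-Olig1 and AAV-GFP at 7 days after the crush and AAV-Olig1 and AAV-GFP at 14 days after it, with 3 libraries each. Every eye was crushed, and the labels record 14 days of virus for all libraries at both times. A library was a small pool of fluorescent cells, enriched with beads against CD90.2 and picked as retinal ganglion cells. The promoter that drives either transgene is not given in the labels.

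Slc1 proteins are sodium-coupled carriers in the plasma membrane. The members Slc1a1, Slc1a2, Slc1a3, Slc1a6 and Slc1a7 take up glutamate and aspartate, and Slc1a4 and Slc1a5 exchange neutral amino acids such as alanine, serine, cysteine and, for Slc1a5, glutamine. In the retina, where photoreceptors, bipolar cells and ganglion cells all release glutamate, uptake ends the signal and keeps extracellular glutamate below toxic levels. Slc1a3 (GLAST or EAAT1) is the carrier of Müller glia, Slc1a2 (EAAT2) is known from cones and bipolar cells, and Slc1a7 (EAAT5), which also conducts chloride when glutamate binds, from photoreceptor and bipolar terminals. Slc1a1 (EAAT3) is a carrier of neurons, and Slc1a6 (EAAT4) is best known from cerebellar Purkinje cells.

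The libraries held 12534515 to 27602459 counts, and levels are in CPM, counts scaled to a library total of 1000000. For a gene listed at 0 the upper limit (3 counts) was 0.109 to 0.239 CPM by library, counting error only. Olig1 itself, the check of the labels, had 1029, 249 and 723 CPM in Olig1 libraries at day 7, against 0.320, 0 and 0.351 CPM in GFP libraries. By day 14 the values were 56.4, 520 and 120 CPM in Olig1 libraries and 0, 0.0362 and 0.251 CPM in GFP libraries. Every library matched its label, although reads of the vector and of the mouse gene cannot be told apart. Markers of the labelled cell type were low: 10 ganglion cell markers summed to 123 to 3897 CPM in the 6 Olig1 libraries and 44.1 to 251 CPM in the 6 GFP libraries. Of these 10 markers, Pou4f3 had 0 counts in all Olig1 libraries, and Pou4f2 and Pou4f3 had 0 counts in all GFP libraries. All 10 Müller glia markers were detected in every library and summed to 42193 to 120197 CPM in Olig1 and 44517 to 113943 CPM in GFP libraries. The 8 rod markers, all detected, summed to 581 to 12151 CPM in Olig1 and 4285 to 54999 CPM in GFP libraries. At least 8 of 9 bipolar markers were detected in every library, with sums of 181 to 457 CPM in Olig1 and 1099 to 5308 CPM in GFP libraries. In 4 libraries (Olig1 day 7 replicate 3, GFP day 7 replicate 3, and GFP day 14 replicates 2 and 3) the sum of 9 microglia and macrophage markers lay between 1315 and 8621 CPM, against 0.586 to 47.1 CPM in the other 8. GFP day 14 replicate 3 also had 132491 CPM in 4 plasma and B cell markers, against at most 67.3 CPM in any other library. The libraries are therefore called by virus and day below, and values that rest on these 4 are also given without them where a fold can be had. In such pools, fewer cells of a type and less RNA per cell cannot be told apart.

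Compared per length of the exons, Slc1a3 was the most abundant family member in all 12 libraries, and this held whether length was the union of exons or the longest transcript. Its share of the family's CPM per kilobase was 60.2% to 79.4% in the 6 Olig1 libraries and 38.5% to 85.5% in the 6 GFP libraries. What differed between the viruses was the runner-up. In Olig1 libraries it was Slc1a1, Slc1a2 and Slc1a2 at day 7 and Slc1a4, Slc1a4 and Slc1a6 at day 14 (replicates 1, 2 and 3), whereas in GFP libraries it was Slc1a7 in 5 of 6 and Slc1a2 in day 7 replicate 1. Slc1a7 made up 0% to 0.603% of the family in Olig1 libraries and 8.55% to 35.0% in GFP libraries, and the 2 ranges did not overlap. Slc1a2, by contrast, had a median share of 8.59% (range 0.727% to 35.4%) in Olig1 and 8.89% (range 4.24% to 14.8%) in GFP libraries. The summed family level overlapped between the viruses, at 18.8 to 48.9 CPM per kilobase in Olig1 and 21.2 to 93.5 CPM per kilobase in GFP libraries.

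**Figure D1:**
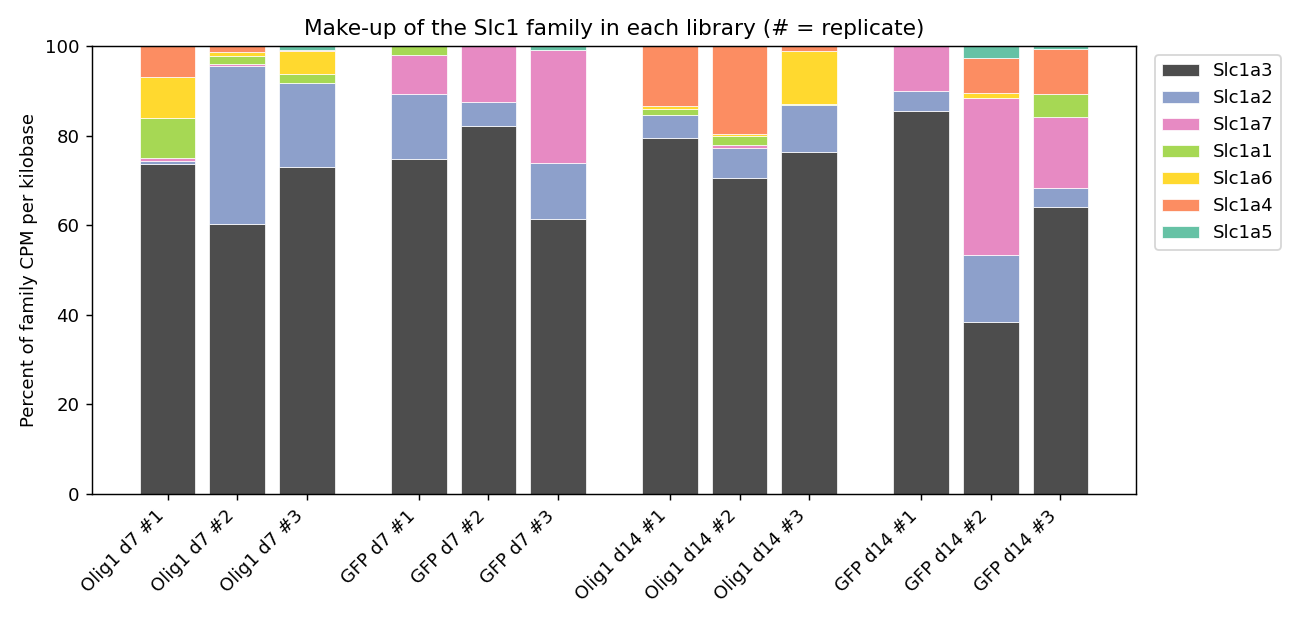
Share of each Slc1 gene in the family's summed CPM per kilobase of exon (vertical axis, percent) in each library (horizontal axis), Olig1 before GFP at each day. Slc1a3 is the largest block in all 12 libraries, and the Slc1a7 block is at most 0.603% in Olig1 and 8.55% to 35.0% in GFP libraries.

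All 7 members passed the filter on low counts, which asks for about 10 counts in 3 libraries and kept 14985 genes. In the edgeR quasi-likelihood fit over these genes (Benjamini-Hochberg adjusted p under 0.05), 0 of 7 members were called between Olig1 and GFP at day 7, where 0.227% of all genes were called. At unadjusted p under 0.05 there were 3, beside 2090 of the 14985 genes tested. The DESeq2 Wald test called 1 of 7 and 954 of all genes, and limma voom called 2 of 7 and 409 of all genes. At day 14, 0 of 7 members were called, against 0.04% of all genes, with 1 at unadjusted p under 0.05, beside 1563 of all genes. DESeq2 and voom called 1 each, and their day 14 counts over all genes are given in the last section. Over the mean of both days 1 of 7 was called, Slc1a7, which was lower with Olig1, against 0.654% of all genes. Because the members were chosen on these levels, nothing is read from these counts. The spread was wide: the common biological coefficient of variation was 1.35, and the labels do not say whether libraries of the same group are separate animals, so p-values reflect nothing beyond the spread of these libraries and that spread may be technical.

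**Figure D2:**
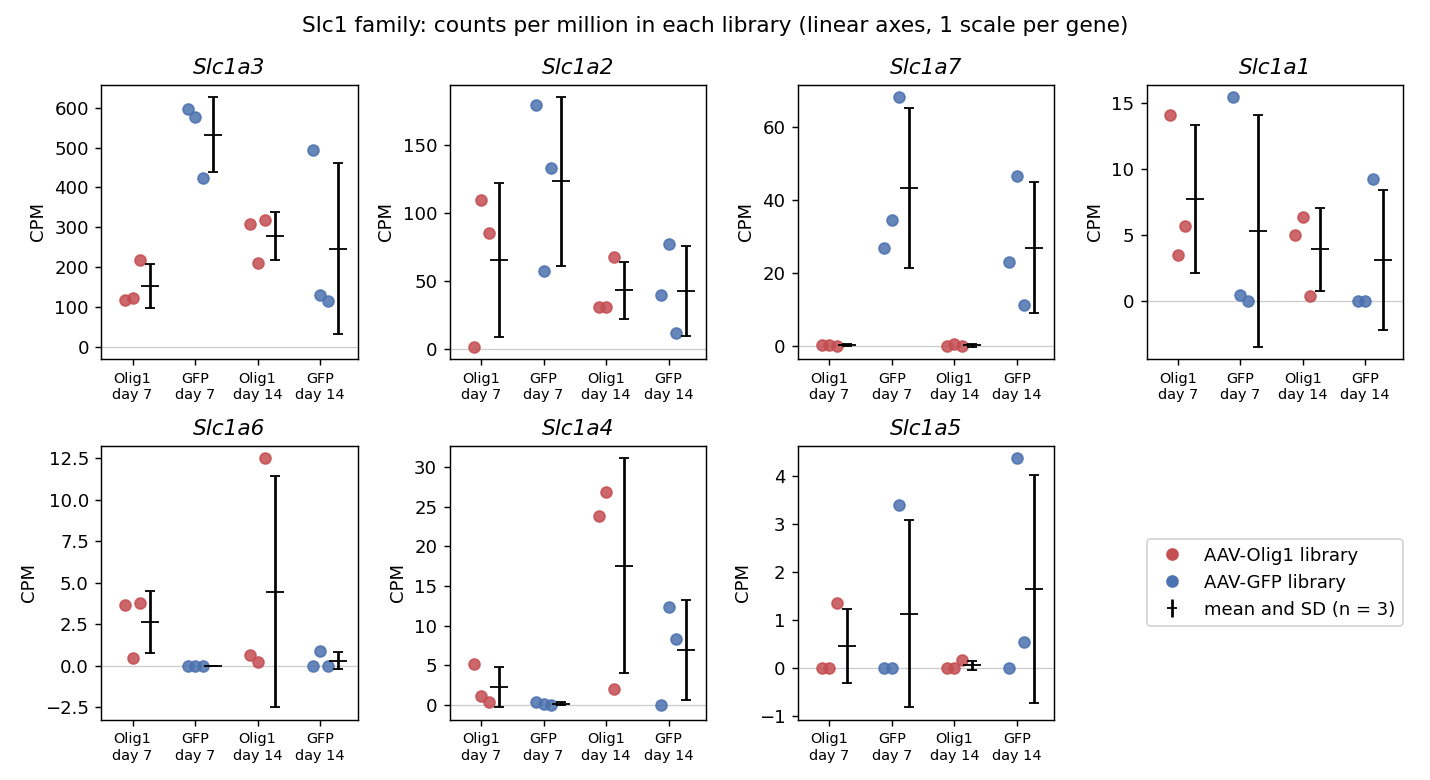
CPM of each Slc1 gene (vertical axes, 1 panel per gene, each with its own scale) in the 4 groups of 3 libraries, Olig1 left of GFP at each day. Points are libraries and bars the mean with SD (n = 3); Slc1a7 separates the viruses at both days and Slc1a3, Slc1a4 and Slc1a6 do so at day 7 but not at day 14.

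Slc1a7 (ENSMUSG00000008932, GRCm38 chr4:107968332-108013532, plus strand) showed the widest separation. At day 7 it had 0.381, 0.319 and 0 CPM in Olig1 libraries, against 26.9, 34.6 and 68.1 CPM in GFP libraries. Its day 14 values were 0, 0.652 and 0 CPM in Olig1 libraries, against 22.9, 46.6 and 11.3 CPM in GFP libraries. The groups did not overlap on either day: 27 counts were spread over 3 of 6 Olig1 libraries, and 4441 counts over all 6 GFP libraries. By mean, GFP day 7 (43.2 ± 21.9 CPM, SD, n = 3) and GFP day 14 (26.9 ± 18.0) overlapped, as did Olig1 day 7 (0.233 ± 0.204) and Olig1 day 14 (0.217 ± 0.376), with a clear gap between the viruses. The fitted log2 fold, Olig1 over GFP, was -7.18 ± 2.06 (SE) at day 7, -6.81 ± 2.01 at day 14 and -6.99 ± 1.44 over both. For all genes tested, groups failed to overlap in the lower direction in 9.01% at day 7, 4.12% at day 14 and 0.901% at both days, and in either direction in 18.4%, 11.9% and 2.28%.

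The call for Slc1a7 was not stable to single libraries. It was kept in 8 of 19 alternative settings, among them the other scalings, tests and filters and the replicate block, but of the 12 libraries only Olig1 day 14 replicate 2 and GFP day 14 replicate 1 could be left out without losing it. Without the 4 libraries rich in microglial markers it was also lost, while the log2 fold was -6.16 at day 7, -6.44 at day 14 and -6.30 over both days. That fit keeps 1 GFP library at day 14, and its median over all genes was 1.53 at day 14 and 1.20 over both days.

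The sum of bipolar markers also separated the viruses, by a smaller ratio than Slc1a7, at 233, 457 and 337 CPM in Olig1 and 1904, 1099 and 1506 CPM in GFP libraries at day 7. At day 14 it was 447, 184 and 181 CPM in Olig1 and 5308, 3392 and 1317 CPM in GFP libraries. Its means in Olig1 and GFP libraries were 342 and 1503 CPM at day 7, and 271 and 3339 CPM at day 14. Slc1a7 amounted to 0% to 0.353% of this sum in Olig1 and 0.431% to 4.52% in GFP libraries. The rod sum separated the viruses at day 7, at 581, 1023 and 1204 CPM in Olig1 and 54999, 11700 and 52640 CPM in GFP libraries. It overlapped at day 14, at 7793, 1072 and 12151 CPM in Olig1 and 4285, 50278 and 18332 CPM in GFP libraries. Slc1a7 had 0 counts in Olig1 day 14 replicates 1 and 3, and 22.9 CPM in GFP day 14 replicate 1. The 7 cone markers summed to 7.996 to 516 CPM in Olig1 and 9.13 to 1766 CPM in GFP libraries, with Cnga3 at 0 in all Olig1 libraries. The part of bipolar, rod or cone RNA in the Slc1a7 difference was not tested.

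**Figure D3:**
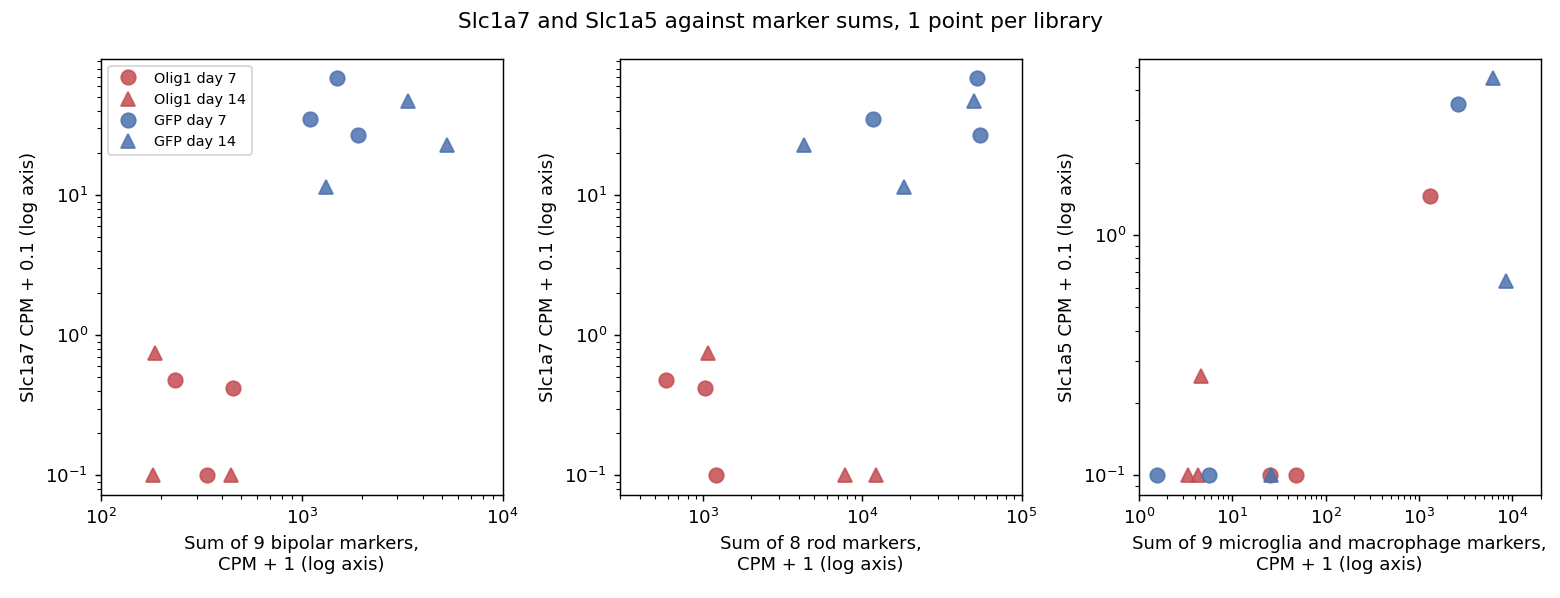
Slc1a7 CPM + 0.1 against the summed CPM + 1 of bipolar markers (left) and rod markers (middle), and Slc1a5 CPM + 0.1 against that of microglia and macrophage markers (right), all on log axes with 1 point per library. Both Slc1a7 and the bipolar sum are lower in every Olig1 library (181 to 457 CPM of bipolar markers) than in any GFP library (1099 to 5308 CPM), and Slc1a5 has at least 13 counts in the 4 libraries with over 1000 CPM of microglial markers.

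The RefSeq promoter windows of 3 members (GRCm38.p6, 250 bases before to 50 bases after the start) are shown for the member that separated the viruses (Slc1a7), the member listed at 0 in 5 GFP libraries (Slc1a6) and the most abundant one (Slc1a3). The window of Slc1a7 lies at chr4:107968156-107968455 (plus strand), that of Slc1a6 at chr10:78780246-78780545 (plus strand) and that of Slc1a3 at chr15:8710758-8711057 (minus strand). Each is printed 5′ to 3′ along its gene, with capitals marking CANNTG, the E-box word that basic helix-loop-helix factors are known to bind.
Slc1a7: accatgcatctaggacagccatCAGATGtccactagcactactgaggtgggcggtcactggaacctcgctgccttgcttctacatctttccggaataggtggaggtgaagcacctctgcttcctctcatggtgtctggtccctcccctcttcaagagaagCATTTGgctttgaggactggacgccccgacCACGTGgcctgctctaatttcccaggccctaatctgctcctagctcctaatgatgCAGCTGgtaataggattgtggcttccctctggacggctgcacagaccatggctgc
Slc1a6: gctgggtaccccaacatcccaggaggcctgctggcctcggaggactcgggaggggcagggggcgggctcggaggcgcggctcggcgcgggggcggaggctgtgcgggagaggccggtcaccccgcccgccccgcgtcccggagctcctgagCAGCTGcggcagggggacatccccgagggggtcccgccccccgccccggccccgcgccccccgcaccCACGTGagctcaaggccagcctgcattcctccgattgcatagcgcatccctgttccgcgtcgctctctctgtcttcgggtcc
Slc1a3: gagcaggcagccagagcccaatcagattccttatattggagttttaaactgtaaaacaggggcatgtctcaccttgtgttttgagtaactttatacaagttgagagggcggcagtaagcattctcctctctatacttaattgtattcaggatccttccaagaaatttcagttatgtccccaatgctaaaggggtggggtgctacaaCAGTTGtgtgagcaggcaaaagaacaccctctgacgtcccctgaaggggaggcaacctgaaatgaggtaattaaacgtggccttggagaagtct
The word occurred 4 times in the Slc1a7 window, 2 times in that of Slc1a6 and 1 time in that of Slc1a3. It reads the same on both strands. Of the 6 members with a RefSeq window, Slc1a2 had 5 matches and Slc1a1 and Slc1a4 had 0. Among all 32851 windows, 72.3% held at least 1 match (median 1), so its presence does not set these promoters apart. TAATCC, the homeodomain word of Otx and Crx factors, searched on both strands, was in 0 of the 6 windows and in 7.06% of all. With 0 matches of TAATCC, no overlap of the 2 words occurred, and a match is a string of letters, not a measured site.

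Slc1a3 (ENSMUSG00000005360, GRCm38 chr15:8634124-8710764, minus strand), the glial glutamate carrier, had lower values in Olig1 than in GFP libraries at day 7. It was not called there by edgeR or DESeq2 and was called by limma voom. At day 7 it had 118, 121 and 216 CPM in Olig1 libraries, against 596, 576 and 424 CPM in GFP libraries. The groups did not overlap at day 7, and the log2 fold was -1.63 ± 0.54 (SE). The day 14 values were 308, 209 and 319 CPM in Olig1 libraries, against 493, 130 and 116 CPM in GFP libraries. Here all Olig1 values lay inside the GFP range, and the log2 fold was 0.25 ± 0.53. The highest mean was that of GFP day 7 (532 ± 94.1 CPM, SD, n = 3), followed by Olig1 day 14 (279 ± 60.5), GFP day 14 (246 ± 214) and Olig1 day 7 (152 ± 55.9). The first stood clear of the second but not of GFP day 14, whose 493 CPM lay inside the GFP day 7 range. Each of the lower 3 overlapped its neighbour. In the same edgeR fit, a test for a change of the fold between the days called 0 of all genes tested. Slc1a3 was thus not called in it, and the contrast between the days is a description.

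Glial markers stand beside the Slc1a3 values. The Müller glia sum, which leaves Slc1a3 out, overlapped between the viruses at day 7, at 42193, 120197 and 47170 CPM in Olig1 and 48429, 105290 and 64965 CPM in GFP libraries. Glul, a marker in it, was lower with Olig1 without overlap at day 7, as were 9.01% of all genes tested. It had 245, 936 and 543 CPM in Olig1 and 3770, 5081 and 4666 CPM in GFP libraries. Its log2 fold was -2.56 ± 0.69 (SE), not called by edgeR, and its groups overlapped at day 14. Kcnj10, also in the sum, overlapped on both days. At day 7 it had 0.272, 0.399 and 46.4 CPM in Olig1 and 45.2, 33.0 and 57.5 CPM in GFP libraries. That overlap rested on Olig1 replicate 3, a microglia-rich library. The part of glial RNA in the Slc1a3 values was not tested. Without the microglia-rich libraries the log2 fold of Slc1a3 was -1.94 at day 7 and -0.65 at day 14. The second value rests on 1 remaining GFP library, with the shift of all genes given above. The day 14 direction depended on single GFP libraries: the fold was 1.04 without replicate 1, which had the 493 CPM, -0.07 without replicate 2 and 0.01 without replicate 3.

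Slc1a2 (ENSMUSG00000005089, GRCm38 chr2:102658659-102790784, plus strand), the main glutamate carrier of forebrain astrocytes, varied as much within a group as between groups. At day 7 it had 1.79, 110 and 85.6 CPM in Olig1 libraries, against 179.5, 57.1 and 133 CPM in GFP libraries. Its values at day 14 were 31.2, 30.5 and 67.3 CPM in Olig1 libraries, against 39.3, 77.2 and 11.8 CPM in GFP libraries. The groups overlapped on both days, and the log2 folds were -0.41 ± 1.03 and 0.09 ± 1.03. Olig1 day 7 replicate 1 had the lowest value of the 12 libraries: without it the day 7 log2 fold was 0.17. It was -1.54 without Olig1 day 7 replicate 2 and -3.12 ± 1.23 with limma voom. At day 14 the fold ran from -0.38 without Olig1 replicate 3 to 0.78 without GFP replicate 2. Without the microglia-rich libraries the folds were -0.31 and 0.30. The second value rests on 1 remaining GFP library, in a fit whose median over all genes was 1.53 at day 14. By mean, GFP day 7 (123 ± 61.8 CPM) came before Olig1 day 7 (65.7 ± 56.6), Olig1 day 14 (43.0 ± 21.1) and GFP day 14 (42.8 ± 32.8), and every neighbour overlapped. The opposite-strand gene Gm13872 shares 189 exon bases with Slc1a2 but had 55 counts in all, against 15428 for Slc1a2. The 6 astrocyte markers summed to 14.3 to 40.3 CPM in Olig1 libraries, with Pax2 at 0 in all of them, and to 15.5 to 354 CPM in GFP libraries, with Igsf1 at 0 in all.

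The 2 neuronal glutamate carriers were sparse. Slc1a1 (ENSMUSG00000024935, GRCm38 chr19:28835049-28913960, plus strand) had 14.1, 3.43 and 5.68 CPM in Olig1 libraries at day 7, against 15.4, 0.438 and 0 CPM in GFP libraries. At day 14 it had 4.99, 6.35 and 0.319 CPM in Olig1 libraries, against 0, 0 and 9.23 CPM in GFP libraries. It was thus detected in all 6 Olig1 libraries and in 3 of 6 GFP libraries, but the 2 ranges overlapped on both days. The log2 folds were 0.74 ± 2.55 at day 7 and -0.02 ± 2.54 at day 14, and each GFP mean rested on 1 library: without GFP day 7 replicate 1 the day 7 value was 4.98, and without GFP day 14 replicate 3, a microglia-rich library, the GFP group held 0 counts at day 14. By mean, Olig1 day 7 (7.73 ± 5.61 CPM) came before GFP day 7 (5.30 ± 8.80), Olig1 day 14 (3.89 ± 3.16) and GFP day 14 (3.08 ± 5.33), all overlapping. Slc1a1 shares 2631 exon bases with 4430402I18Rik on the opposite strand, which had 616 counts against 1170 for Slc1a1. Olig1 day 7 replicate 1, Olig1 day 14 replicate 3 and GFP day 14 replicate 3 held 167, 234 and 183 of the 616, and any other library at most 28. Slc1a1 had 259, 6 and 221 counts in these 3 libraries, the 221 being all its GFP counts at day 14. As the strand setting is not given, reads in the shared stretch cannot be assigned with certainty.

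Slc1a6 (ENSMUSG00000005357, GRCm38 chr10:78780496-78814765, plus strand) was seen with Olig1 and hardly with GFP. At day 7 it had 3.64, 0.479 and 3.78 CPM in Olig1 libraries and 0 counts in all 3 GFP libraries. Set against the 3 counts that 0 allows over the group, the pooled ratio was at least 50.9 (129 pooled counts in Olig1). That bound covers counting error only and leaves out the spread between libraries. The fitted log2 fold was 8.53 ± 3.24 (SE), which depends on the prior count. Slc1a6 was not called at day 7, in the main fit or in 18 alternatives. Over both days the main fit did not call it, and of 18 alternatives only DESeq2 did. At day 14 it had 0.630, 0.244 and 12.5 CPM in Olig1 libraries, against 0, 0.906 and 0 CPM in GFP libraries. Here the groups overlapped, the log2 fold was 3.94 ± 2.69, and Olig1 day 14 replicate 3 held 235 of the 254 counts: without it the fold was 0.62. All 25 GFP counts came from replicate 2, a microglia-rich library, and without the microglia-rich libraries there were 254 counts in Olig1 against 0 in the remaining GFP library, for which no fold is given. For all genes tested, 9.4% were higher without overlap at day 7, 7.78% at day 14 and 1.37% at both days. By mean, Olig1 day 14 (4.46 ± 6.97 CPM) came before Olig1 day 7 (2.64 ± 1.87), GFP day 14 (0.302 ± 0.523) and GFP day 7 (0), each overlapping its neighbour. Ganglion cell and amacrine marker sums also differed at day 7: the ganglion sum was 1741, 3897 and 1799 CPM in Olig1 and 53.9, 251 and 44.1 CPM in GFP libraries, and the amacrine sum 3107, 1281 and 1409 CPM in Olig1 and 572, 651 and 285 CPM in GFP libraries. Their part in the Slc1a6 values was not tested. In the library with the highest Slc1a6 level, Olig1 day 14 replicate 3, the ganglion sum was 123 CPM and the amacrine sum 1377 CPM.

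Of the neutral amino acid exchangers, Slc1a4 lay higher with Olig1 at day 7, as Slc1a6 did, and Slc1a5 was nearly absent from most libraries. Slc1a4 (ENSMUSG00000020142, GRCm38 chr11:20302180-20332713, minus strand; ASCT1) had 5.16, 1.20 and 0.406 CPM in Olig1 libraries at day 7, against 0.373, 0.109 and 0 CPM in GFP libraries. The level at day 14 was 23.9, 26.8 and 2.02 CPM in Olig1 libraries, against 0, 12.4 and 8.35 CPM in GFP libraries. The groups did not overlap at day 7, by a margin of 6 against 7 counts in the closest pair of libraries, and they overlapped at day 14. The log2 folds were 3.89 ± 2.29 and 1.26 ± 2.05. With the replicate number as a block the day 14 value was -0.06. By mean, Olig1 day 14 (17.6 ± 13.6 CPM) came first, then GFP day 14 (6.90 ± 6.30), Olig1 day 7 (2.26 ± 2.55) and GFP day 7 (0.161 ± 0.192). The first 3 overlapped in turn, and GFP day 7 did not overlap Olig1 day 7 but lay inside the range of GFP day 14. All 541 GFP counts at day 14 came from the 2 microglia-rich libraries, while the third GFP library had 0. The highest values, in Olig1 day 14 replicates 1 and 2, stood beside microglial marker sums of 2.37 and 3.34 CPM. The microglia-rich libraries at day 7, replicate 3 of each virus, had 0.406 CPM of Slc1a4 in Olig1 and 0 CPM in GFP. Without the microglia-rich libraries the day 7 fold was 3.84, and at day 14 there were 1190 counts in Olig1 against 0 in the remaining GFP library, for which no fold is given. The part of microglial RNA was not tested.

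Slc1a5 (ENSMUSG00000001918, GRCm38 chr7:16781340-16798274, plus strand; ASCT2), the glutamine exchanger, was confined to few libraries. At day 7 it had 0, 0 and 1.35 CPM in Olig1 and 0, 0 and 3.39 CPM in GFP libraries. At day 14 it had 0, 0 and 0.160 CPM in Olig1 and 0, 4.38 and 0.543 CPM in GFP libraries. The 4 libraries with 20, 58, 121 and 13 counts were the 4 rich in microglial markers, and the other 8 had 0 to 3 counts. Within these 4, in the same order, Slc1a5 amounted to 0.103%, 0.130%, 0.0706% and 0.0063% of the microglial marker sum. The library with 13 counts had the highest sum, 8621 CPM. At day 7 the log2 fold was -1.31 ± 2.75. It rested on 1 library in each virus, replicate 3: the fitted value was -7.27 without that of Olig1 and 5.94 without that of GFP, where the emptied group held 0 counts and the value depends on the prior count. At day 14 the pooled counts were 3 in Olig1 and 134 in GFP, a ratio GFP over Olig1 of 37.1 (95% counting interval 12.4 to 182), and both GFP libraries with counts were microglia-rich. GFP replicate 2 held 121 of the 134 counts, and without it 3 counts in Olig1 stood against 13 in GFP. By mean, GFP day 14 (1.64 ± 2.39 CPM) came before GFP day 7 (1.13 ± 1.96), Olig1 day 7 (0.451 ± 0.780) and Olig1 day 14 (0.0532 ± 0.0921), all overlapping. Without those 4 libraries Slc1a5 did not pass the filter. The part of microglial RNA in these values was not tested.

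Across the 12 libraries each member was set beside the 12116 tested protein-coding genes by the Pearson correlation of log2(CPM + 1). The libraries share their virus, day and cell makeup, so these values are descriptive. Nearest to Slc1a7 were Cep112 (r = 0.97), Nxnl1 (0.96), a thioredoxin-like gene of photoreceptors, and Ybx3 (0.92). Slc1a5 was closest to Siglech (0.99), Pirb (0.99) and Lcp1 (0.98), genes of microglia and other leukocytes. For Slc1a3 they were Tmem98, Syt10 and Epas1 (0.90 each). The leading gene was Mettl8 for Slc1a1 (0.93), Relch for Slc1a2 (0.90), Prmt1 for Slc1a4 (0.87) and Trib3 for Slc1a6 (0.91). Next for Slc1a1 were Elp6 (0.91) and Hexim2 (0.90), for Slc1a2 Adgrl2 (0.86) and Ttyh1 (0.85), for Slc1a4 Sept5 (0.87) and Bsnd (0.86), and for Slc1a6 Ccdc184 (0.91) and Lrrc9 (0.90). By Spearman's rho, Hexim2, Ccdc184 and Ybx3 ranked first for Slc1a1, Slc1a6 and Slc1a7, whereas Siglech ranked 70 for Slc1a5 and Nxnl1 ranked 72 for Slc1a7. Among the members themselves the strongest values were -0.63 between Slc1a6 and Slc1a7 and -0.55 between Slc1a3 and Slc1a4.

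The genes that make, package and recycle the substrates of these carriers were followed as a list of 38, of which 35 were tested. The list was chosen with earlier results of these data known, and some of its genes are also cell type markers used above. Its counts and median are therefore a description, and nothing is read from them against all genes. Over the mean of both days 3 rose with Olig1 (Gad1, Slc17a6 and Atp1b1) and 0 fell, against 0.38% of all genes called higher and 0.274% called lower. At day 7 and at day 14, 1 rose, Gad1 on both days, against 0.14% and 0.02% of all genes. The edgeR fit called 0 lower at either day (0.0868% and 0.02% of all genes). At unadjusted p under 0.05 there were 9, 5 and 6 of the 35 at day 7, at day 14 and over both. Of the 14985 genes tested, 2090, 1563 and 2230 passed the same rule. DESeq2 and voom each called 1 lower at day 7, 0 at day 14 and 1 over both. Over both days 22 of the 35 log2 folds were positive and 13 negative. Among the negative ones was Slc17a7, a vesicular glutamate transporter (-2.48 ± 0.74, SE, edgeR adjusted p = 0.130). At day 7 Glul had a log2 fold of -2.56 ± 0.69 (edgeR adjusted p = 0.178). The median log2 fold of the list was 0.10 at day 7, 0.65 at day 14 and 0.52 over both, beside -0.03, 0.09 and 0.06 for all genes.

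Gad1, which makes GABA from glutamate, had 1022, 373 and 126 CPM in Olig1 and 0.693, 0.0547 and 0.761 CPM in GFP libraries at day 7. Its day 14 levels were 154, 1.79 and 76.0 CPM in Olig1 and 0, 0 and 0.0418 CPM in GFP libraries. The groups did not overlap, with a log2 fold of 10.20 ± 1.67 at day 7 (edgeR adjusted p = 0.0204). At day 14, with 1 pooled count in GFP, the ratio was 5605 (95% counting interval 1005 to 221424; adjusted p = 0.0335). Over both days the adjusted p was 0.000996, and it stayed below 0.05 in all 19 alternatives, with a largest value of 0.0277. The day 7 call was lost in 7 of 20 alternatives and the day 14 call in 14 of 20.

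Slc17a6, which loads glutamate into the synaptic vesicles of ganglion cells, had 92.6, 30.8 and 36.0 CPM in Olig1 and 0.107, 0 and 0 CPM in GFP libraries at day 7, and 0, 25.7 and 1.06 CPM in Olig1 and 0 in all GFP libraries at day 14. Over both days that was 3274 counts in Olig1 against 2 in GFP, a ratio of 1957 (95% counting interval 541 to 16170; edgeR adjusted p = 0.0326). Atp1b1, a subunit of the sodium pump whose gradient drives Slc1 uptake, had 732 ± 728 CPM in Olig1 and 93.7 ± 23.8 CPM in GFP libraries at day 7, and 442 ± 156 CPM in Olig1 and 152 ± 75.9 CPM in GFP libraries at day 14. Its log2 fold over both days was 2.24 ± 0.46 (adjusted p = 0.0376), and Olig1 was higher without overlap on both days. The calls of Slc17a6 and Atp1b1 held in 8 of 18 and 9 of 19 alternatives, and both were lost without the microglia-rich libraries (adjusted p = 0.0806 and 0.0627). Gad1 is also in the amacrine and Slc17a6 in the ganglion cell marker list, whose sums were also higher in Olig1 libraries at day 7, and the part of those cell types was not tested.

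In the other groups of the list edgeR called 0 genes over both days, with 1 at unadjusted p under 0.05, beside 2230 of the 14985 genes tested. Among 8 tested carriers of glutamine and neutral amino acids the smallest p belonged to Slc38a3, a glutamine exporter of Müller glia, with 34.0 ± 22.9 CPM in Olig1 and 160 ± 59.2 CPM in GFP libraries at day 7 and 63.7 ± 37.2 CPM in Olig1 and 141 ± 45.7 CPM in GFP libraries at day 14 (log2 fold over both days -1.64 ± 0.45, edgeR adjusted p = 0.109). Among 5 genes of cystine uptake and glutathione synthesis it was Gss (1.77 ± 1.39, adjusted p = 0.615), and among 5 of serine synthesis Psph (-0.997 ± 0.543, adjusted p = 0.413). Gss had 16.1, 339 and 18.3 CPM in the Olig1 libraries at day 7, so its mean there rested on replicate 2.

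**Figure D4:**
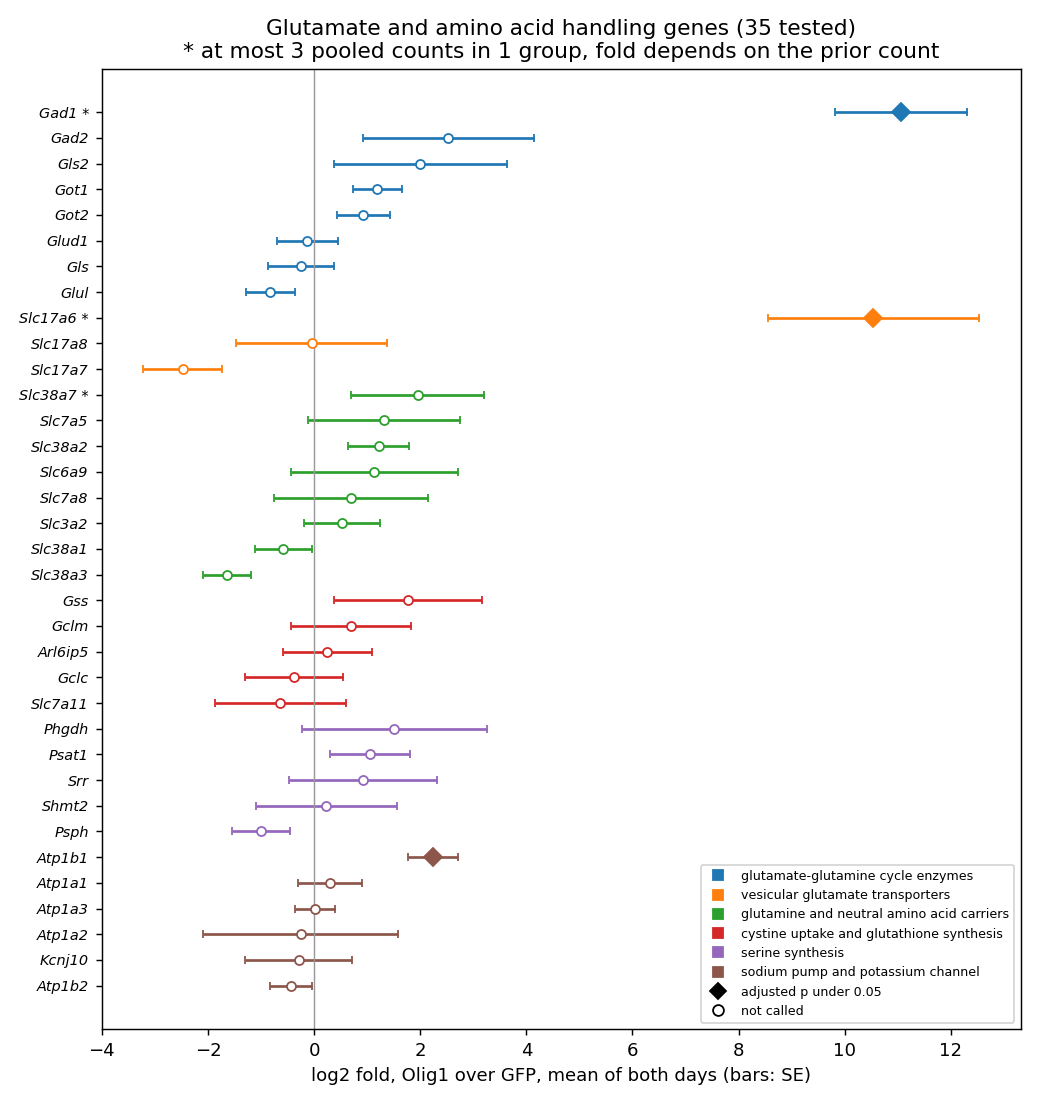
Log2 fold of Olig1 over GFP over the mean of both days (horizontal axis, bars SE) for the 35 tested genes of glutamate and amino acid handling (vertical axis), coloured by group. Filled diamonds are the 3 genes with an adjusted p under 0.05 (Gad1, Slc17a6 and Atp1b1), open circles are the others, and asterisks mark genes with at most 3 pooled counts in a group.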

How the data were processed

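RNA was measured in 12 libraries in 4 groups of 3. The authors deposited raw counts per Ensembl gene, which they made with FastQC, HISAT2 and HTSeq on mm10, per the submitters' processing notes. Tool versions, the gene annotation and the strand option are not stated in the labels used here. The sample tables of 4 libraries ended early, and their missing genes were read from the series table, with 0 values differing elsewhere. Symbols came from GENCODE M21 (54165 of 54232 matched), and promoters from RefSeq, GRCm38.p6 (6 of 7 members). cDNA was amplified by PCR and the labels name no molecular identifiers, so intervals cover counting error only.

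CPM used total counts, and levels between genes were divided by kilobases of exon. The test was edgeR 4.0.16's robust quasi-likelihood F test under R 4.3.3 (TMM scaling; filterByExpr, minimum count 10), in 1 fit of the 12 libraries without covariates, and genes were called at a Benjamini-Hochberg adjusted p of 0.05 over 14985 genes. Each log2 fold is Olig1 over GFP. Alternatives used DESeq2 1.42.0 and limma 3.58.1. The scripts were tested on simulated data. Python 3.11.15 with pandas 2.3.3 made the tables and matplotlib 3.10.9 the figures. The labels mention several batches but do not assign libraries to them, so no test has a batch term.

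The members and lists were chosen with earlier results of these data known. The text names all 7 members, called genes of the handling list, its smallest p per subgroup, the 3 genes most like each member, and Olig1. Glul, Kcnj10, Slc17a7 and the marker genes at 0 were named after their values were seen.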

Additional observations from a re-analysis of the deposited data

How the results depend on the processing

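The number of genes called, 34 at day 7, 6 at day 14 and 98 over both days by edgeR, depended on the test. It was 954, 743 and 1153 with DESeq2, 409, 30 and 453 with voom, and 218, 23 and 401 with no filter. At day 14 the stricter filter gave 2 and the compared groups alone 0. Without the microglia-rich libraries it was 176 at day 14 and 349 over both days. Leaving out 1 library at a time gave 1 to 81 genes at day 7, 0 to 6 at day 14 and 26 to 133 over both days. For the handling list, 1, 1 and 3 genes, the counts were 5 at day 7 and 3 at day 14 with DESeq2, 2 and 0 with voom, 2 at day 7 with no filter, 2 and 0 with the compared groups alone, 0 at day 14 with the stricter filter and 0 at day 7 without the microglia-rich libraries. Single libraries moved them over 0 to 2, 0 to 1 and 1 to 3. Of the Slc1 genes, 0, 0 and 1 by edgeR, DESeq2 called 1, 1 and 2 and voom 2, 1 and 1, and without the microglia-rich libraries 0 were called over both days, with 0 to 0, 0 to 0 and 0 to 1 over single libraries. The causes were not tested.

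With the replicate number as a block, the fit called 1 gene at day 14 and 64 over both days, 0 and 1 of the handling list. Deviations of same-numbered libraries correlated at -0.0702 to 0.0477 (18 pairs), so the numbers did not pair them.

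Of the members' alternative log2 folds, 42 moved by more than the SD between replicates and 358 did not, and the called fold of Slc1a7 kept its sign in all 19. Scaling CPM by TMM moved 0 of 28 group means, and the longest transcript moved 6 of 28 per-kilobase means, those of Slc1a3 in all 4 groups and of Slc1a1 in Olig1. Spearman's rho moved 8 of 21 likeness values by over 0.1. Where leaving out libraries left an arm with 1 library, that library was assumed to vary like the other groups.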
